A study of Homo sapiens with 20 samples.

Results

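CL1-0 and CL1-5 are human lung adenocarcinoma cell lines, CL1-5 being the more invasive subline that was selected from CL1-0. The untreated state of this pair was compared through 2 of the 20 samples of the series, the Mock mRNA-seq library of CL1-0 and the Mock mRNA-seq library of CL1-5. A gene entered the comparison when its FPKM (sequenced fragments scaled to transcript length and to library size, a level per length) was at least 1 in either library, which 13398 of the 36076 listed genes met, 11139 of them protein-coding. The difference was taken as log2((CL1-5 + 0.1)/(CL1-0 + 0.1)) of FPKM, so that a positive value is higher in CL1-5, and it was called at 4-fold, a log2 difference of 2.

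Both lines had been received from one university laboratory, had been authenticated by their short tandem repeat profiles and were grown in RPMI-1640 medium with serum. Mock cells received PBS. A second library of each line came from cells given 100 nM decitabine (DAC) for 72 hours and then left in drug-free medium for 3 days. Decitabine is a cytidine analogue that traps DNA methyltransferases, and 6 lung cancer lines of the study have mRNA-seq libraries with and without it. The DAC libraries of CL1-0 and CL1-5 did not enter the choice of genes and served as a second reading of the line difference.

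Invasion of a carcinoma line draws on proteases that cut the matrix, on matrix proteins and the integrins that hold them, and on the loosening of junctions between epithelial cells. Promoter DNA methylation can keep a gene silent through cell divisions, and loss of the methyltransferases can lift that silencing and can also set off an interferon response inside the cancer cell. For each gene, the libraries show whether the line difference was still there after the drug.

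Each line and treatment is 1 library, so the spread between replicates was not measured, no test was run, and every difference below is a difference between 2 libraries. Between 22234485 and 25303899 reads fell on genes in the 4 libraries. Intervals are 95% exact binomial (Clopper-Pearson) intervals on the reads and cover counting error only. A gene with no read is compared through a floor of 3 reads and given as a lower bound. In bulk RNA, fewer cells with a transcript and less transcript per cell cannot be told apart. Mitochondrial transcripts took 8.23% of the reads in CL1-0 Mock and 4.41% in CL1-5 Mock, and 7.85% and 3.88% after DAC; their part in the other differences was not tested.

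The epithelial label was checked against fixed markers. The simple epithelial keratins KRT8 and KRT18 were high in CL1-5 and nearly silent in CL1-0, whereas EPCAM, the epithelial adhesion molecule, was at 0.151 FPKM in CL1-0 Mock and 0.132 in CL1-5 Mock. E-cadherin (CDH1) stood at 0.562 and 0.478 FPKM, and KRT19 at 0 and 0.758. EPCAM, CDH1 and KRT19 were thus under 1 FPKM in both Mock lines. The lung adenocarcinoma markers NKX2-1, NAPSA and SFTPB also stayed below 1 FPKM in both. Of the 6 leukocyte markers and the 4 listed endothelial markers, 0 reached 1 FPKM in either Mock library. Of the 7 fibroblast markers 3 did, COL1A1, COL1A2 and COL3A1, each higher in CL1-0 and none above 2.03 FPKM.

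Promoters of 4 genes are printed because they mark the extremes of persistence and narrowing: in each direction, the gene with the largest difference that persisted after DAC, and the one whose difference narrowed most through the line that was low. In the lower direction the largest narrowing was that of MYL9, and the promoter shown is that of the next gene, SPANXB1. The sequences are the 250 bases before the gene start from RefSeq on GRCh38.p14, read 5′ to 3′ on the gene's strand. Capitals mark CG, the dinucleotide that DNA methyltransferases modify.
S100A6 (chr1:153535992-153536241, minus strand): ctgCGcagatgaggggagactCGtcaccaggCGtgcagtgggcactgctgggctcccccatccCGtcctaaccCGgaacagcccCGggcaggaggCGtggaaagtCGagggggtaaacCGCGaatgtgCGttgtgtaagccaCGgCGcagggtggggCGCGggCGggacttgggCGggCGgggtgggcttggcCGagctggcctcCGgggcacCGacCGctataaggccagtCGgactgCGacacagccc
GPX1 (chr3:49358354-49358603, minus strand): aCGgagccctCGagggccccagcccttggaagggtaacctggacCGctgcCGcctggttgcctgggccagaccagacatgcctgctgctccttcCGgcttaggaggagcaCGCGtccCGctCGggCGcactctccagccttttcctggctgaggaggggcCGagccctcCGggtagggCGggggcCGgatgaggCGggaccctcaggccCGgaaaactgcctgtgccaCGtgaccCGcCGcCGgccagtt
NTS (chr12:85874045-85874294, plus strand): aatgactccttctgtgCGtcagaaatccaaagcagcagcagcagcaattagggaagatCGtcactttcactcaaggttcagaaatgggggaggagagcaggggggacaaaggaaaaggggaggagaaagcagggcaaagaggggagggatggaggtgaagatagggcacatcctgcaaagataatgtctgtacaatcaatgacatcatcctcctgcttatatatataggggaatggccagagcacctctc
SPANXB1 (chrX:141002344-141002593, plus strand): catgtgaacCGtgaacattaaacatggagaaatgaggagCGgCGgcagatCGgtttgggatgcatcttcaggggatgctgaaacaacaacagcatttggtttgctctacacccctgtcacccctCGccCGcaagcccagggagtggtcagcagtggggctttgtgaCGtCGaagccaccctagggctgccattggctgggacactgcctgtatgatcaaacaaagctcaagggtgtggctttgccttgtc
CG occurred 24 times in the S100A6 promoter, 20 times in that of GPX1, 8 times in that of SPANXB1 and 2 times in that of NTS. The motif searched was CG, which reads the same on both strands. Over the 300 bases from 250 before to 50 after the start, 85.8% of the 8924 tested protein-coding genes with a sequence held 15 or more CG, with a median of 27. No comparison of called with other genes is given, because a sequence was matched for 70.5% of the protein-coding genes called higher and 75.2% of those called lower, under the 80% needed.

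The untreated sublines differed by at least 4-fold at 1566 genes (11.7% of those tested), 940 higher in CL1-5 (7.02%) and 626 lower (4.67%). Genes of the urokinase system, basement membrane laminins, keratins, S100 proteins, inflammatory cytokines and interferon-stimulated genes were among those higher in CL1-5. SOX2, HOXA5, osteopontin (SPP1), connexin 43 (GJA1) and the CDKN2A tumour suppressor were among those lower. The median difference over all tested genes was 0.01. At 16-fold, 356 genes were higher and 174 lower, and at 64-fold 82 and 36. Among protein-coding genes 614 were called higher (5.51%) and 443 lower (3.98%). Just past the limit stood TM7SF2 at -2.0010, DNASE2 at -2.0011 and IRS2 at -2.0018, and just short of it SRGN at -1.9999, ZNF358 at -1.9986 and SLC6A6 at 1.9977.

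The pair was closer than any other pair among the 6 untreated lines (A549, CL1-0, CL1-5, PC9, H1299 and H1792). By the same rule, the nearest other pair, A549 and CL1-0, differed at 15.8% of genes, and the most distant, PC9 and H1299, at 28.9%. The H1299 library differed technically from the rest, with 59735913 reads, even read numbers at 85.5% of genes with 1 to 20 reads and no mitochondrial read. Over all genes the 5 pairs that contain it were the 5 most distant. Over protein-coding genes they were not, with CL1-5 and H1299 at 14.7% and CL1-0 and PC9 at 18.9%. CL1-0 and CL1-5 were closest there too, at 9.49%. Of the 614 protein-coding genes higher in CL1-5, the CL1-0 library lay below all 4 unrelated lines at 366, and the CL1-5 library lay above all 4 at 228. Of the 443 lower in CL1-5, the CL1-5 library lay below all 4 at 154 and the CL1-0 library above all 4 at 244.

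After DAC the line difference was still at least 4-fold in the same direction at 660 of the 940 genes that were higher (70.2%) and at 422 of the 626 that were lower (67.4%). Among protein-coding genes these shares were 84.4% (518 of 614) and 72.7% (322 of 443). A further 90 and 103 protein-coding genes were reduced to between 2-fold and 4-fold, 6 and 18 were removed, meaning under 2-fold either way, and 0 turned in either direction. Over all genes tested in Mock, 6.18% were 4-fold higher and 4.13% 4-fold lower in CL1-5 after DAC. Across the 11139 protein-coding genes the Mock and DAC differences had a Pearson r of 0.91, a description across genes of 4 libraries, which are 2 separate pairs.

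**Figure D1:**
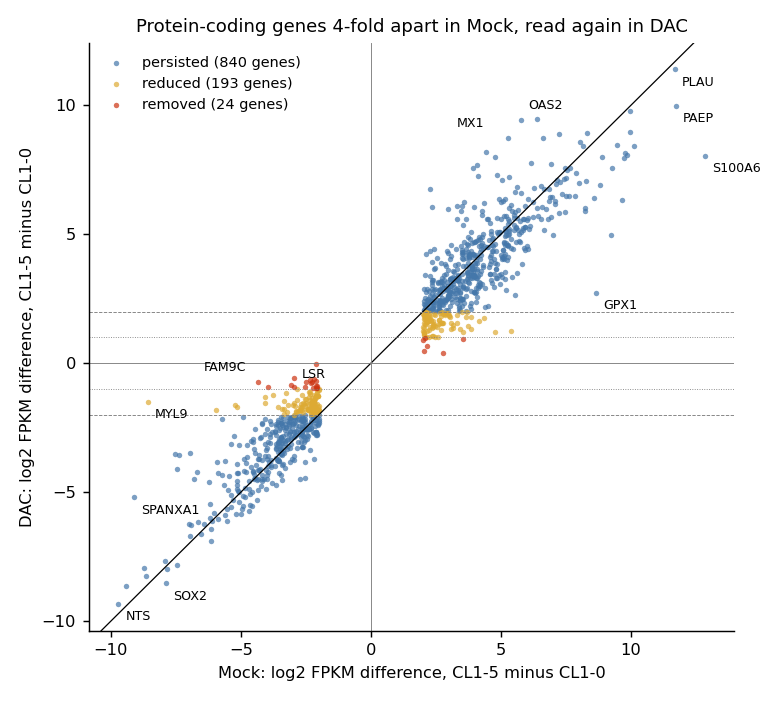
The log2 FPKM difference between CL1-5 and CL1-0 in Mock (x axis) is plotted against the same difference in DAC (y axis) for the protein-coding genes 4-fold apart in Mock, 1 point a gene, with 840 persisted, 193 reduced and 24 removed. Dashed lines mark 4-fold, dotted lines 2-fold and the diagonal equality, so that GPX1 and MYL9 lie far from the diagonal while PLAU and NTS lie near it.

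PLAU, urokinase, which turns plasminogen into plasmin at the cell surface, had one of the largest of these differences. It read 0 FPKM in CL1-0 Mock and 329 in CL1-5 Mock, and 0.0572 and 421 after DAC. That is 0 against 26287 reads in Mock, at least 7633-fold higher in CL1-5. Its receptor PLAUR read 1.49 and 31.7 FPKM in Mock and 1.30 and 45.3 after DAC. MMP14, the membrane collagenase that activates other metalloproteinases, read 0.892 and 150 in Mock, and 2.22 and 131 after DAC. MMP1, interstitial collagenase, read 0.516 and 46.4, then 1.22 and 101. In each of these genes both CL1-5 libraries lay above both CL1-0 libraries. The list of matrix proteases and inhibitors had 24 tested members, of which 11 were higher by 2-fold and 3 lower, with a median of 0.64, against 13.4% and 11.4% of all tested protein-coding genes. After DAC, 13.3% and 9.94% of the same protein-coding genes were past 2-fold, and 13 and 2 of the 24 members. The same shares are the background for the counts of the other lists below. The 3 that were lower were MMP10, ADAMTS1 and MMP15, and MMP10 (a stromelysin) read 5.32 and 0.420 FPKM in Mock and 4.28 and 0.515 after DAC. TIMP1 and TIMP2, inhibitors of metalloproteinases, were within 2-fold, while TIMP3 read 3.48 and 51.9 in Mock and 2.67 and 95.0 after DAC.

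Laminin chains, subunits of the basement membrane trimers that anchor epithelia, differed widely. LAMB3 read 0.0357 FPKM in CL1-0 Mock and 94.5 in CL1-5 Mock, and 0.0924 and 67.8 after DAC. LAMA3 read 0.0282 and 6.0, then 0.107 and 8.06. Both chains were at or below 0.107 FPKM in both CL1-0 libraries. The integrin chains ITGA3 and ITGA2, receptors for laminin and collagen, read 1.31 and 50.8 FPKM and 0.0375 and 18.6 FPKM in CL1-0 and CL1-5 Mock. COL6A1, a collagen VI chain, read 13.1 and 215 in Mock and 13.8 and 204 after DAC. COL5A2, a fibrillar collagen V chain, went the other way, at 71.0 and 0.211 in Mock and 95.7 and 0.276 after DAC. Of the 31 tested matrix proteins 20 were higher in CL1-5 and 5 lower, with a median of 2.06 in Mock and 2.51 after DAC.

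Genes of the epithelial to mesenchymal transition differed in both directions. SNAI2, the Slug repressor, read 0 FPKM in CL1-0 Mock and 44.3 in CL1-5 Mock, at least 795-fold higher, and 0.0444 and 17.2 after DAC. The receptor tyrosine kinase AXL read 0.304 and 55.0 FPKM in Mock and 0.544 and 46.2 after DAC. Vimentin (VIM), an intermediate filament of mesenchymal cells, was abundant in both lines, at 122 and 353 in Mock and 106 and 292 after DAC, 2.88-fold higher in CL1-5 (2.83 to 2.93). The transcription factors TWIST1 and ZEB2 were lower in CL1-5: TWIST1 read 14.8 and 1.52 in Mock and 11.5 and 1.15 after DAC. Of 23 tested members of this list 15 were higher and 4 lower (TWIST1, ZEB2, POSTN and CCN2), with a median of 1.95 in Mock and 2.25 after DAC. Beside the low EPCAM and CDH1 given above, then, the line with more vimentin and Slug was also the line with the keratins.

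Keratins, the intermediate filaments of epithelia, were higher in CL1-5 at 8 of 9 tested members, with KRT10 the exception. KRT8 read 0.154 FPKM in CL1-0 Mock and 75.9 in CL1-5 Mock, and 1.05 and 68.4 after DAC. KRT18, its partner, read 0.118 and 65.7, then 0.924 and 66.8. Both rose in CL1-0 after DAC and stayed far under CL1-5, with log2 differences of 8.23 for each in Mock and of 5.90 and 6.03 after DAC. KRT81 and KRT86 are near-identical copies whose reads may be split. Genes of the epithelial adhesion list, unlike the keratins, went in both directions. DSP (desmoplakin), PKP3 and MPZL2 were higher in CL1-5 and PKP2, JUP, SPINT2, AP1M2 and LSR lower, which are all 8 tested members of the epithelial adhesion list, with a median of -2.03 in Mock and -0.67 after DAC.

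S100 proteins, small calcium sensors encoded together on chromosome 1, were higher in CL1-5 at 8 of 9 tested members, with a median of 5.01 in Mock and 4.96 after DAC. S100PBP, which encodes a binding protein rather than an S100 protein, was the exception. S100A6 (GRCh37 chr1:153507075-153508720) had the largest difference in the comparison. It read 0.0436 FPKM in CL1-0 Mock and 1055 in CL1-5 Mock, from 1 and 27776 reads, a ratio of 24195 with an interval from 4342 to 955697. After DAC it read 4.14 and 1116, still 270-fold apart. Among the other untreated lines it read 1453 FPKM in A549, 604 in PC9, 982 in H1792 and 0.180 in H1299, so CL1-0 and H1299 were low and the rest high. S100A11 read 21.4 and 695 in Mock and 16.7 and 813 after DAC. S100A4, linked to metastasis, read 0.579 and 4.93 in Mock and 4.05 and 45.0 after DAC, higher after DAC in both lines.

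CXCL8, IL6 and CXCL1, cytokine genes that NF-kB drives, were near 0 in CL1-0. CXCL8, the neutrophil attractant interleukin 8, read 0.0186 FPKM in CL1-0 Mock and 118 in CL1-5 Mock, and 0.0594 and 78.4 after DAC. IL6 read 0 and 15.1 in Mock and 0 and 47.0 after DAC, at least 246-fold and at least 960-fold higher in CL1-5. CXCL1 read 0 and 18.6, then 0.0521 and 27.0. Of 19 tested members 14 were higher in CL1-5 and 0 lower, with a median of 2.84 in Mock and 3.06 after DAC. Ligands read by immune cells were split. The checkpoint ligand CD274 (PD-L1) read 0.0516 and 21.7 in Mock and 0.0247 and 17.0 after DAC, and CD70 read 0.277 and 26.9, then 0.110 and 45.5. ICAM1, the adhesion ligand of lymphocyte integrins, read 0.0800 and 3.20 FPKM in Mock and 0.984 and 17.6 after DAC. It was higher after DAC in both lines. Its ratio of FPKM was 39.9-fold in Mock (19.2 to 100.2) and 17.9-fold after DAC (14.7 to 21.9), while the log2 difference with the pseudocount, 4.19 and 4.03, hardly moved.

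PAEP, glycodelin, a secreted lipocalin, was found in CL1-5 alone among the untreated lines. It read 0 FPKM in CL1-0 Mock and 336 in CL1-5 Mock, at least 3841-fold higher, and 0 and 101 after DAC. The 4 unrelated lines were listed at 0 untreated and read at most 0.136 FPKM after DAC. CDCP1, a surface glycoprotein that Src kinases phosphorylate, read 0.0195 and 119 in Mock and 0.0208 and 105 after DAC. The CT47A cancer testis genes of chromosome X were higher in CL1-5, at between 0.164 and 0.182 FPKM in CL1-0 Mock and 229 to 244 in CL1-5 Mock for CT47A7, CT47A11 and CT47A12, with 0.629 to 0.783 and 209 to 223 after DAC. These are near-identical copies, and how the reads divide among them is uncertain. The cyclin CCND1 read 2.26 and 36.4 in Mock and 1.45 and 40.2 after DAC.

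Lower in CL1-5 were genes of several lineages. NTS, the peptide neurotensin, read 144 FPKM in CL1-0 Mock and 0.0712 in CL1-5 Mock, from 5303 and 3 reads, a ratio of 2029 with an interval from 694 to 9843. After DAC it read 185 and 0.185. GJA1, the gap junction protein connexin 43, read 93.7 and 0.0364 in Mock and 105 and 0.163 after DAC. SPP1, the secreted phosphoprotein osteopontin, read 947 and 2.26 in Mock and 1222 and 3.89 after DAC, 419-fold lower in CL1-5 in Mock (356 to 498). All 3 were at least 314-fold apart in both pairs of libraries, by their ratios of FPKM. The nuclear receptor NR2F1 read 61.2 and 0.0439 in Mock and 56.2 and 0.127 after DAC. OLFM3, an olfactomedin, read 17.4 and 0, then 22.5 and 0, at least 706-fold and at least 817-fold lower in CL1-5, and it was listed at 0 in the 4 unrelated untreated lines.

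Developmental transcription factors took opposite sides. SOX2, a stem cell and airway factor, read 47.7 FPKM in CL1-0 Mock and 0.103 in CL1-5 Mock, and 49.4 and 0.0328 after DAC. SOX9, a factor of the distal lung bud, read 0.0646 and 28.8, then 0.172 and 15.5. FOXA1 read 5.23 and 0.380 in Mock and 4.46 and 0.300 after DAC, while FOXA2, a related forkhead factor, read 0.0163 and 10.8, then 0.0130 and 13.2. Each of these pairs kept its order in DAC. Among HOX genes, which set position along the body axis, 14 of 22 tested members were lower in CL1-5 by 2-fold and 2 higher, with a median of -2.08 in Mock and -1.66 after DAC. HOXA5, among the 14, read 25.5 and 0.908 in Mock and 27.6 and 0.507 after DAC. HOXB9 and HOXD13 were the 2 that were higher.

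CDKN2A, which encodes the cell cycle inhibitors p16INK4a and p14ARF, read 9.97 FPKM in CL1-0 Mock and 0 in CL1-5 Mock, and 7.12 and 0 after DAC. Its neighbour on chromosome 9, CDKN2B, read 1.12 and 0 in Mock and 1.26 and 0 after DAC. No read fell on either gene in either CL1-5 library, which makes CDKN2A at least 390-fold lower in Mock and at least 250-fold lower after DAC. CRMP1 and DNAJB4, both described as suppressors of invasion in this line series, were lower in CL1-5. CRMP1 read 27.1 and 1.53 FPKM in Mock and 23.3 and 1.81 after DAC, and DNAJB4 read 12.9 and 3.82, then 12.9 and 5.84. They belong to a list of 5 genes linked to invasion in this pair, of which 3 were tested. The remaining tested member was at least 4-fold higher in CL1-5. ALDH1A1, a retinal dehydrogenase, read 200 and 4.17 in Mock and 182 and 2.52 after DAC. SLC2A3, the glucose transporter GLUT3, read 178 and 6.91 in Mock and 160 and 2.90 after DAC. The targets of NRF2, the oxidative stress factor, had 4 of 26 tested members higher by 2-fold in Mock and 10 lower. The cell cycle list had 2 of 43 higher and 8 lower. Over all tested protein-coding genes 13.4% were higher and 11.4% lower. DNMT1, the maintenance methyltransferase that DAC traps, was within 2-fold, at 33.0 and 26.1 FPKM in Mock and 31.3 and 31.5 after DAC, and DNMT3A and DNMT3B were within 2-fold as well.

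Signalling lists split in both directions. Among 33 tested members of the Wnt, TGF-beta and Notch pathways 12 were higher in CL1-5 by 2-fold and 6 lower. Over all tested protein-coding genes 13.4% were higher by 2-fold in Mock and 11.4% lower. The Notch ligand JAG1 read 0.179 FPKM in CL1-0 Mock and 32.2 in CL1-5 Mock, and 0.269 and 39.5 after DAC, whereas the receptor NOTCH3 read 3.75 and 0.0589, then 3.62 and 0.360. Ligand and receptor of this pathway thus stood on opposite sides in both pairs of libraries. Receptor tyrosine kinases and their ligands had 12 of 36 higher and 11 lower, and AREG, a ligand of the EGF receptor, read 0 and 4.72 in Mock and 0.123 and 5.67 after DAC.

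The counts that follow are at 2-fold in Mock, where 13.4% of all tested protein-coding genes were higher and 11.4% lower. Integrins had 6 of 12 members higher and 3 lower, and cadherins 3 of 11 higher and 5 lower. Tight junction genes had 2 of 9 higher and 1 lower. Hypoxia and glycolysis genes had 11 of 33 higher and 2 lower, with a median of 0.69. Of these ENO2, neuronal enolase, read 0.673 and 43.7 FPKM in Mock and 1.59 and 24.3 after DAC. Lung lineage genes had 3 of 8 higher and 4 lower. Ligands of the immune synapse had 12 of 29 higher and 2 lower, and ADGRE5 (CD97), an adhesion receptor lower in CL1-5, read 17.4 and 2.32 in Mock and 17.2 and 8.45 after DAC. The neuroendocrine marker CHGA, chromogranin A, was also lower in CL1-5, at 3.31 and 0.190 in Mock and 2.59 and 0.345 after DAC. UHRF2 was the 1 of 18 tested genes of the DNA methylation machinery past 2-fold in Mock, at 2.29 and 8.94 FPKM, and 3.62 and 8.59 after DAC.

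A difference was counted as narrowed when it was at least 2-fold smaller after DAC. That held for 329 of the 940 genes higher in CL1-5 (35.0%) and for 176 of the 626 lower (28.1%). Among protein-coding genes it held for 131 of 614 (21.3%) and 103 of 443 (23.3%), while 56 and 8 widened by as much. Genes chosen for a large difference in 1 pair of libraries narrow on average in any second pair, so the same count was made backwards. Of the 733 and 390 protein-coding genes 4-fold apart in DAC, 29.5% and 9.74% were at least 2-fold closer in Mock. In protein-coding genes higher in CL1-5 the backward share was thus the larger of the pair, and in those lower the smaller. Over all genes the backward shares were 31.3% and 21.2%, both below the forward shares, so the order for higher genes held in protein-coding genes but not over all genes. Over all 1560 genes called in DAC (11.4%), 961 were called higher in DAC (7.03%) and 599 lower (4.38%). Of these, 70.8% and 71.1% were at least 4-fold apart in Mock in the same direction, with no filter on their Mock FPKM.

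Each narrowed difference was split by the line that changed more. Of the 103 narrowed protein-coding genes with CL1-5 lower, 78 narrowed mostly through a rise in CL1-5 and 25 mostly through a fall in CL1-0. For the 131 with CL1-5 higher, 64 narrowed mostly through a rise in CL1-0 and 67 mostly through a fall in CL1-5. The genes were chosen with 1 line low in Mock, and the split was not made backwards from DAC. Over all protein-coding genes tested in each line, 3.92% rose by 2-fold after DAC in CL1-5 and 1.55% in CL1-0. MYL9, a regulatory light chain of myosin, narrowed most: it read 43.5 FPKM in CL1-0 Mock and 0.0131 in CL1-5 Mock, from 2896 and 1 reads, and 59.4 and 20.8 after DAC. The 3325-fold ratio in Mock, with an interval from 596 to 131359, stood at 2.85 after DAC, and MYL9 rose by 7.53 on the log2 scale in CL1-5. STAT6, the interleukin 4 signal transducer, read 16.2 and 0.212 in Mock, and after DAC it stood at 3.23 in CL1-5, 4.63-fold below CL1-0. QPRT, an enzyme of NAD synthesis, read 25.9 and 0.0405, then 25.7 and 2.17. In these 3 genes CL1-0 moved by less than 0.5 on the log2 scale.

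Germline genes with a large narrowing are given next, chosen for that narrowing. HORMAD1, a meiotic chromosome protein, read 4.19 FPKM in CL1-0 Mock and 0.0153 in CL1-5 Mock, and 4.87 and 1.51 after DAC. FAM9C read 2.18 and 0.0126, then 2.36 and 1.39, which removed its difference. SPANXB1, the sperm protein gene whose promoter is printed above, read 16.1 and 0.157 in Mock and 17.4 and 4.83 after DAC, and SPANXA1 read 114 and 0.107, then 97.9 and 2.56. SPANX genes share reads among copies, so their separate levels are uncertain. Of the 16 tested members of the cancer testis list, 1 was higher in CL1-5 and 9 lower in Mock, against 3 and 5 after DAC, and the median stood at -1.11 and -0.40. Of the same 16, 3 narrowed by 2-fold and 2 rose by 2-fold in CL1-5. With 1 member higher in Mock, this list cannot hold all of the CT47A genes given above, which were higher in CL1-5.

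In the other direction GPX1, glutathione peroxidase, narrowed most. It read 0.178 FPKM in CL1-0 Mock and 112 in CL1-5 Mock, and 21.3 and 142 after DAC, so that a 628-fold difference (288 to 1712) stood at 6.65-fold (6.19 to 7.15). GPX1 is the gene of the second promoter printed above. APOBEC3C, a cytidine deaminase that restricts viruses, read 0.737 and 22.9 in Mock and 6.42 and 14.9 after DAC. S100A16 read 0.0996 and 121, then 1.61 and 53.2, with a rise in CL1-0 and a fall in CL1-5. MFAP2, a microfibril protein, read 0 and 4.11 in Mock and 1.84 and 4.48 after DAC, from at least 94.4-fold to 2.43-fold. The germline gene MAGEA11 read 0.0367 and 6.25, then 1.13 and 7.62.

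After DAC the difference was removed, to under 2-fold, at 24 protein-coding genes. Of these, 18 had been lower in CL1-5 (4.06% of 443) and 6 higher (0.977% of 614). Over all genes, 10.4% of those called higher and 6.55% of those called lower were removed. Followed back from DAC to Mock, 11.1% of the genes 4-fold higher and 10.0% of those 4-fold lower were removed. Only some of the 24 protein-coding genes are described here. Among the others, CFD and IGFBP3, chosen after their values were seen, changed more in CL1-0, by -1.09 and -1.12 on the log2 scale. In CL1-5 they changed by -0.01 and 0.30. HIST1H2BB, called higher, rested on 0 reads in CL1-0 Mock and 11 in CL1-5 Mock. LSR, AP1M2 and JUP of the epithelial adhesion list were 3 of the 24. LSR, the tricellular junction receptor also called angulin-1, read 32.7 FPKM in CL1-0 Mock and 3.76 in CL1-5 Mock, and 24.9 and 13.8 after DAC. AP1M2, the clathrin adaptor of epithelial sorting, read 36.8 and 4.67, then 19.6 and 13.1, and JUP (plakoglobin) read 11.6 and 1.95, then 10.4 and 6.16. After DAC these 3 genes read higher in CL1-5 and lower in CL1-0 than in Mock. The cyclin CCND3 read 55.9 and 11.1 in Mock and 47.6 and 27.6 after DAC, and the calcium channel gene TRPM2 read 4.48 and 0.198, then 4.23 and 2.21. Of the 6 that had been higher, FOSB, an immediate early factor, read 1.85 and 13.1 in Mock and 2.09 and 2.76 after DAC, a fall in CL1-5. TNFRSF10D, a decoy receptor of TRAIL, read 3.44 and 14.2, then 3.29 and 6.17. JUP, TRPM2, FOSB and TNFRSF10D were chosen after their values were seen.

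Genes with 3 reads or fewer in 1 line were followed separately. Of the protein-coding genes called higher in CL1-5, 173 were at this floor in CL1-0 Mock. After DAC 105 of them were still at or under it in CL1-0, 68 were over it and 3 reached 1 FPKM. Of those called lower, 72 were at the floor in CL1-5 Mock, of which 34 stayed there, 38 were over it and 8 reached 1 FPKM. Most of these genes thus stayed under 1 FPKM in the silent line after the drug. The same share was not taken over all genes at the floor, so the counts have no background.

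The line difference of the interferon-stimulated genes was larger after DAC. Of 35 tested members 29 were higher in CL1-5 Mock by 2-fold and 0 lower, with a median of 2.41, and 23 passed 4-fold. After DAC 34 were higher by 4-fold and the median was 4.41. From Mock to DAC, 32 members rose by 2-fold in CL1-5 and 4 in CL1-0, against 3.92% and 1.55% of the protein-coding genes tested in each line. IFIT3, a binder of viral RNA, read 0.193 FPKM in CL1-0 Mock and 24.3 in CL1-5 Mock, and 0.115 and 152 after DAC. OAS2, a sensor of double-stranded RNA, read 0 and 5.34 in Mock and 0.0108 and 76.6 after DAC, and MX1, an antiviral GTPase, read 0.0147 and 4.30, then 0.0314 and 56.3. CL1-0 stayed near 0 at all 3. ISG15, the ubiquitin-like modifier, was 1.52-fold apart in Mock (1.43 to 1.62), at 75.2 and 114 FPKM, and 17.5-fold apart after DAC, at 60.7 and 1062. USP18 and IFI35 were lower in CL1-5 in Mock by less than 2-fold, and after DAC USP18 read 7.99 and 35.0. BST2 and LGALS3BP, 2 of the 4 that rose in CL1-0, read 0.265 and 1.09 FPKM and 1.77 and 5.65 FPKM in Mock, and 6.94 and 75.4 FPKM and 17.7 and 91.1 FPKM after DAC.

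**Figure D2:**
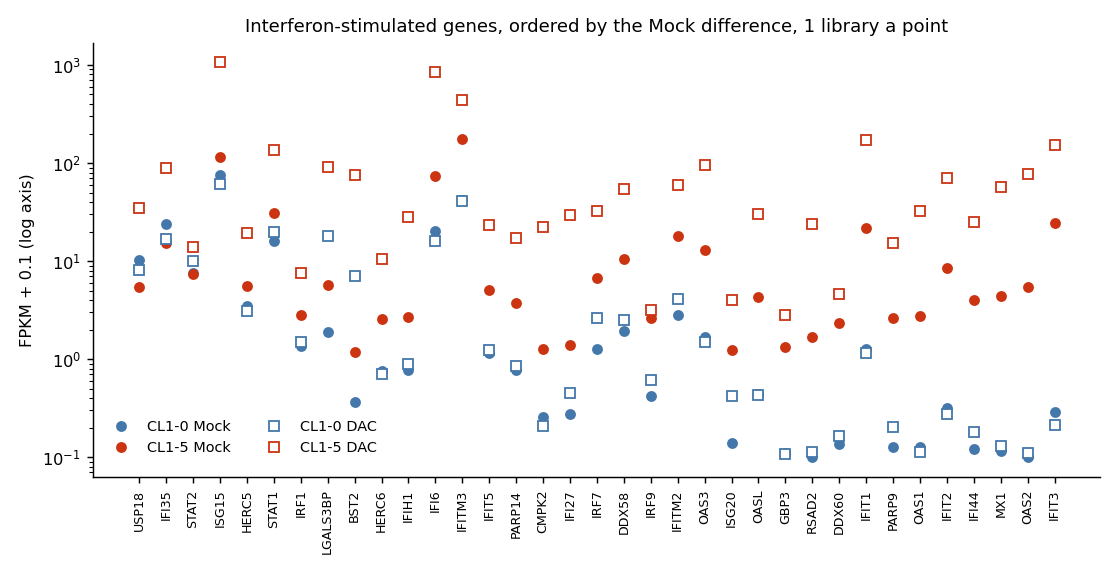
FPKM + 0.1 on a log axis for the 35 tested interferon-stimulated genes in the 4 libraries, ordered along the x axis by the Mock difference from lowest to highest, 1 library a point. CL1-5 DAC is the highest of the 4 points at each gene, and the 2 CL1-0 points lie close together at most.

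Genes of antigen presentation also stood further apart after DAC. Of 18 tested genes of this list 3 were higher in CL1-5 Mock and 3 lower, against 13 and 2 after DAC, with medians of 0.73 and 1.64. B2M, the invariant chain of MHC class I, read 45.3 and 53.3 FPKM in Mock and 40.3 and 122 after DAC. PSMB9, an immunoproteasome subunit, read 3.74 and 6.23 in Mock and 1.85 and 24.0 after DAC, and HLA-B read 40.3 and 79.6, then 37.6 and 221. HLA genes share reads. PSMB8, another such subunit, was apart already in Mock, at 0.338 and 13.1, and read 0.606 and 57.6 after DAC.

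Line differences also clustered by position, a feature that the choice of genes did not use. In windows of 10 Mb with at least 15 tested genes (GRCh37), the median difference was at or above 0.5 in 31 of 267 windows and at or below -0.5 in 22. After DAC 20 and 16 of these were still past the same limit, and 50 of the 53 had the same sign. Chromosome 8 had a median of 0.73 in Mock and 0.61 after DAC over 456 genes, of which 58 were called higher in CL1-5 (12.7%, against 7.02% of all genes). Its window at 90 to 100 Mb had the highest median of all windows in Mock, 1.41, and its window at 140 to 150 Mb the highest after DAC, 1.27. Windows of chromosome 1 between 140 and 190 Mb, where the S100 genes lie, had medians between 0.66 and 1.08. Chromosome X had a median of -0.41 in Mock and -0.37 after DAC, and the window at 30 to 40 Mb of chromosome 18 had the lowest median, -1.30 in Mock and -1.41 after DAC. The copy number of these regions was not analysed here.

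Chromatin accessibility was measured by ATAC-seq in 8 libraries, none of them from CL1-0. The deposited peak lists labelled CL1-5 and PC9 carry the name of the other line inside, so that values are given for both. Of the 174 protein-coding genes silent in CL1-0 Mock and at 1 FPKM or more in CL1-5 Mock, 87.9% (82.1 to 92.4) had a peak within 3000 bp of the start in the untreated list under the CL1-5 label, and 85.1% had one under the PC9 label. Of the 72 silent in CL1-5 and at 1 FPKM or more in CL1-0, the shares were 52.8% (40.7 to 64.7) and 30.6% (20.2 to 42.5). Untreated A549 and H1299 gave 51.4% and 43.1% for these 72 genes, and 73.0% and 60.9% for the 174. Genes at 1 FPKM or more in both CL1-0 and CL1-5 had a peak in 85.4% under the CL1-5 label and 85.2% under the PC9 label. In untreated A549 and H1299 the shares for these genes were 84.7% and 84.1%. Under either label, the 72 genes silent in CL1-5 had a promoter peak less often than the genes expressed in both CL1-0 and CL1-5. The same held in untreated A549 and H1299.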

How the data were processed

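mRNA-seq of 6 lung cancer lines, Mock and DAC, gave 12 libraries in 1 table, and 4 of these (CL1-0 and CL1-5) carried the comparison. The authors aligned reads to hg19, counted them on GENCODE genes with GenomicAlignments and normalized them with DESeq2 1.24.0. The study's methods name RSEM with bowtie2 and the submitters' processing notes TopHat2 2.1.1. The strand setting of the counting is not given in the sources used here, so that overlapping antisense genes cannot be told apart. The deposited values are FPKM. The table also holds a mean normalized signal over samples, made by the authors, which was used to recover read numbers. The authors' own comparison columns (log2 fold change, standard error, statistic, p-value and adjusted p-value) were not used. Per the file headers, the deposited ATAC-seq peak lists hold a fold enrichment from MACS2 2.2.5, of which only peak positions were used. The number of columns that matched no sample was 0.

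Whole reads were recovered from the FPKM and the mean normalized signal for 100% of values (within 0.01 reads). They gave the totals per library and the counting intervals. Positions come from GENCODE on GRCh37 and protein-coding status from the same annotation, with Y-linked genes left out of the protein-coding counts. A pseudocount of 0.1 FPKM was added before log2, which understates the fold of low genes. Persistence, narrowing, gene lists, 10 Mb windows and promoter peaks were computed with Python 3.11.15, numpy 2.4.6 and pandas 2.3.3, in code tested on simulated data. Named genes were the 12 protein-coding genes in each direction with the largest persisting difference, the 8 with the largest narrowing, the 4 members of each list with the largest difference, all members of lists of 6 or fewer, and ICAM1, CDH1, VIM, DNMT1, DNMT3A and DNMT3B. Other genes printed were chosen after their values were seen. Genes on chromosome 8 were not considered for the printed promoters. Some genes and lists are not reported here. The genes, lists and limits were chosen with earlier results of these data known. No test was run, since each group holds 1 library. Alternatives (36 planned, others added after seeing the data) changed the pseudocount, filter, scaling, limit, gene set, window and peak distance.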

Additional observations from a re-analysis of the deposited data

Results flagged for a closer look

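In 5 genes with more than 20 reads in each of the 4 libraries, the line difference was past 2-fold in both Mock and DAC but in opposite directions, a change that was not tested. COL1A1, a fibrillar collagen I chain, had a log2 difference of -1.03 in Mock and 1.31 after DAC, with 1.28 and 0.579 FPKM in CL1-0 and CL1-5 Mock and 1.08 and 2.84 FPKM after DAC. TRPV2, a calcium channel, had -1.45 and 1.61, and was higher after DAC in both lines, at 1.98 and 0.660 FPKM in Mock and 5.49 and 17.0 FPKM after DAC. CLEC11A, a secreted lectin, had -1.16 and 1.66. GMPR, guanosine monophosphate reductase, had -1.03 and 1.34. RP13-996F3.4 had 1.01 and -1.48. In the first 4 the opposite sign went with a higher level in CL1-5 after DAC.

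A further 30 genes outside the protein-coding set were past 4-fold in Mock and past 2-fold the other way after DAC. None of them had more than 14 reads in a Mock library. This was not tested either.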

How the results depend on the processing

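No paired test was run: the libraries pair by line and by treatment, but each line and treatment has 1 library, the labels carry no replicate numbers, and no replicate could be left out. The cause of the shifts below was not tested. For genes higher and lower in CL1-5 (940 and 626), a pseudocount of 1 gave 410 and 226, no filter 1762 and 1053, a filter at 5 FPKM 399 and 224, an 8-fold limit 612 and 351, a 2-fold limit 2137 and 1737, and protein-coding genes 614 higher. The share higher in CL1-5 stayed between 55.2% and 67.0%. Rescaling to a common sum moved the median of all genes from 0.01 to 0.21, so that its counts are relative to that shift. Persistence of higher genes (70.2%) was 52.8% with no filter, 79.2% at 5 FPKM, 63.2% rescaled, 74.5% with quantile normalization, 83.3% at 8-fold, 84.4% in protein-coding genes and 77.7% with 20 or more reads. For lower genes (67.4%) it was 63.3% with a pseudocount of 1, 55.7% with no filter, 74.0% rescaled, 84.3% at 8-fold, 71.1% chosen in DAC and 72.7% in protein-coding genes. Narrowing of higher genes (35.0%) was 15.4% and 43.1% with pseudocounts of 1 and 0.01, 44.6% with no filter, 28.1% at 5 FPKM, 42.9% rescaled, 28.2% with quantile normalization, 31.3% chosen in DAC, 21.3% in protein-coding genes and 27.0% with 20 or more reads. For lower genes (28.1%) the same were 13.7%, 36.0% and 36.2% with no filter, 23.4% rescaled, 21.2% chosen in DAC, 23.3% in protein-coding genes and 23.2% with 20 or more reads. The pair differed at 28.9% of genes at 2-fold, 4.75% with a pseudocount of 1 and 12.3% rescaled, and was the closest of the 15 pairs each time. In DAC, fewer list members were lower: 5 of the cancer testis, 2 of the epithelial adhesion, 6 of the NRF2 and 3 of the cell cycle genes, the last also 3 when rescaled. Peaks within 1000 bp were found at 79.9% of genes silent in CL1-0, and exchanging the CL1-5 and PC9 labels gave 30.6% for those silent in CL1-5. Of 164 values for 41 named genes under alternatives, none changed sign, and ICAM1 (1.96), FAM9C (-1.65) and HIST1H2BB (1.05) fell under 4-fold with a pseudocount of 1. A changed pseudocount cannot change a sign, and most of these genes were chosen for a large difference or narrowing. The unchanged signs are therefore no measure of how firm the differences are. The 20-read filter, and the protein-coding shares of persistence and narrowing, were chosen after seeing the data.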

Other observations

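After DAC, 74 protein-coding genes were 4-fold higher in CL1-5 that had not been 2-fold higher there in Mock. A further 12 were 4-fold lower that had not been 2-fold lower in Mock. The genes given here, from among these and the other genes whose difference widened, were chosen after their values were seen. CXCL10, a T cell attractant, read 0 FPKM in both Mock libraries, 0 in CL1-0 DAC and 7.53 in CL1-5 DAC, the last from 215 reads. IFITM1, a membrane protein that blocks viral entry, read 0 and 0.649 FPKM in Mock and 0 and 29.4 after DAC. APOL1, an apolipoprotein, read 1.18 and 2.25 in Mock and 1.10 and 41.5 after DAC. MT1E, a metallothionein, was at 0 in both Mock libraries and at 0.0642 and 6.11 after DAC. CCL3 and CCL3L1 were also in this set, and CCL3L1 is listed under 2 identifiers that share reads. A CCL3L1 entry had a log2 difference of -1.16 in Mock, past 2-fold the other way. From Mock to DAC 425 protein-coding genes rose by 2-fold in CL1-5 and 165 in CL1-0.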
